A study of Mus musculus with 24 samples.

Results

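The genes described here are 31 genes expressed by astrocytes, at rest or when reactive, out of 55487 gene identifiers counted in each of 24 mouse brain RNA-seq libraries. They were taken as a given list of symbols and matched to the Ensembl identifiers of the count files through GENCODE M21, and all 31 were found. The list holds 2 intermediate filament genes, 18 genes of resting astrocytes (5 for water and ion handling, 3 for glutamate uptake and recycling, 2 gap junction genes and 8 for metabolism, signalling and cell identity) and 11 genes induced in reactive astrocytes or by injury. The study removed the olfactory bulbs of wild-type mice (bulbectomy, a lesion that removes the first relay of smell) or operated on them without removal (sham), and its title relates the lesion to Alzheimer's disease and major depression. Hippocampus gave 4 bulbectomy and 5 sham libraries, cortex 3 and 5, and cerebellum 2 and 5. The cortex library numbered bulbectomy 3 and the cerebellum libraries numbered bulbectomy 3 and 4 are not analysed here. Strain, sex, age and the time between surgery and dissection were not given in the sources used here, and nothing there says that libraries of a group came from separate animals, so every p-value measures the spread between these samples, which may be technical.

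Astrocytes are the glial cells that clear glutamate and potassium from around synapses, pass glutamine back to neurons, carry water at the blood vessel wall and form a network joined by gap junctions. After injury, inflammation or loss of input they can become reactive: the filaments of GFAP and vimentin are built up, and secreted protease inhibitors, complement, lipocalin, matrix receptors and small heat shock proteins can be induced, in part through STAT3 and NF-kappaB. Cerebellar astrocytes include Bergmann glia, which wrap the Purkinje cell synapses and rely on another glutamate transporter than forebrain astrocytes do.

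Reads assigned to genes ranged from 3255661 to 138963332 per library in hippocampus, both extremes being sham libraries, from 10073878 to 17052728 in cortex and from 10400540 to 20230673 in cerebellum. The 31 genes took 0.779 to 1.67% of assigned reads. Levels are given as CPM, the usual scaling of a gene's read count to the size of its library, on one scale for all 24 libraries. Between genes they are given as RPKM, which divides CPM by the exon length of the gene in kilobases. This length joins the exons of all annotated transcripts, so it can exceed that of the transcript present, and the order of genes by RPKM depends on it. In bulk tissue fewer cells of a type and less RNA per cell cannot be told apart. Some libraries stood apart from the rest of their group, as sums of marker genes showed. Hippocampus sham 1 and sham 2 held 2615 and 3885 CPM of a list of striatal neuron markers against 193 to 410 CPM in the other hippocampal libraries, and cerebellum sham 1 held 8423 CPM of granule and Purkinje cell markers against 3164 to 4702 CPM in the other cerebellar libraries. Hippocampus bulbectomy 3 held 2728 CPM of a list of microglia markers against 992 to 2164 CPM in the other hippocampal libraries. The defining astrocyte genes were abundant in every library: the lowest level of Gfap was 322 CPM, of Aldoc 897 CPM and of Glul 834 CPM.

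Windows around the transcription start, from 250 bases before it to 30 bases after, are shown for 4 of the genes on which the hippocampal results turn: Sdc4 and Hspb1, the reactive genes of smallest p, F3, the resting gene of smallest p, and Gfap, the gene most used to mark reactive astrocytes. Sequences are from RefSeq (GRCm38.p6), written 5′ to 3′ on the strand of the gene, and 28 of the 31 genes had a window there. Capitals mark a match, on either strand, to TTCNNNGAA (the pairing of half-sites bound by STAT factors) or to TGANTCA (the AP-1 site). Of all 32851 windows of 280 bases, 7.8% held the first motif and 7.5% the second, and of the 34 windows of these 28 genes 6 and 4 did.
Sdc4 (chr2:164443159-164443438, minus strand): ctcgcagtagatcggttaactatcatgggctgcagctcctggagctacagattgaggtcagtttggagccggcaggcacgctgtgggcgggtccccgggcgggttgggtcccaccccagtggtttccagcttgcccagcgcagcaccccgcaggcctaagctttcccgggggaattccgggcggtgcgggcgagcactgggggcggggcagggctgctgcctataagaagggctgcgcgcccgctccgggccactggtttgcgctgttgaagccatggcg
Hspb1 (chr5:135887669-135887948, plus strand): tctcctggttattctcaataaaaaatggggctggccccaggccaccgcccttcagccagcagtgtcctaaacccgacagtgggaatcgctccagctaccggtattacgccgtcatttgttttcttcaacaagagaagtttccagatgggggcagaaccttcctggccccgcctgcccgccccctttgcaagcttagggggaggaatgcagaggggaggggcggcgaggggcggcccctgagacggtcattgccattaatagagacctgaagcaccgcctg
Gfap (chr11:102897171-102897450, minus strand): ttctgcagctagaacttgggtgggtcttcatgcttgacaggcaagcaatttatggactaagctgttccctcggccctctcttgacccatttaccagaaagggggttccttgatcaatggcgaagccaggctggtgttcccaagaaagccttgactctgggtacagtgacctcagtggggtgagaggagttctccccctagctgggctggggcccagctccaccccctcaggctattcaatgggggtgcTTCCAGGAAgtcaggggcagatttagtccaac
F3 (chr3:121723287-121723566, plus strand): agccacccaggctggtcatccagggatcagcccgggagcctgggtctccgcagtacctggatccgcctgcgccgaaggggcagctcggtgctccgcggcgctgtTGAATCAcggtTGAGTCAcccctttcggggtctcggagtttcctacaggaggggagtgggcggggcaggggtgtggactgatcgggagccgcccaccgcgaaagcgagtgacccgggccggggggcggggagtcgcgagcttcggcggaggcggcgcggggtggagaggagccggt
The windows of Sdc4 and Hspb1 held neither motif. The window of Gfap held 1 match to TTCNNNGAA, and that of F3 held 2 matches to TGANTCA. A match describes letters in this window and says nothing of binding in these tissues.

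In the hippocampus 1 of 30 astrocyte genes tested, the proteoglycan gene Sdc4, rose after bulbectomy, and 0 fell, at an edgeR adjusted p under 0.05 over all genes (1.55% of 13985 genes were called). Of the 30, 21 had a higher and 9 a lower fitted level after bulbectomy, with a median log2 difference of 0.36 against 0.018 over all genes. An unadjusted p under 0.05 was reached by 11 of the 30 (36.7%, against 20% of all genes). In 3 of them, Aldoc, Hspb1 and Sdc4, every bulbectomy library was above every sham library (3.70% of all genes), and in 1, Fgfr3, every bulbectomy library was below (5.61%). Steap4 had too few reads to be tested within a tissue.

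**Figure D1:**
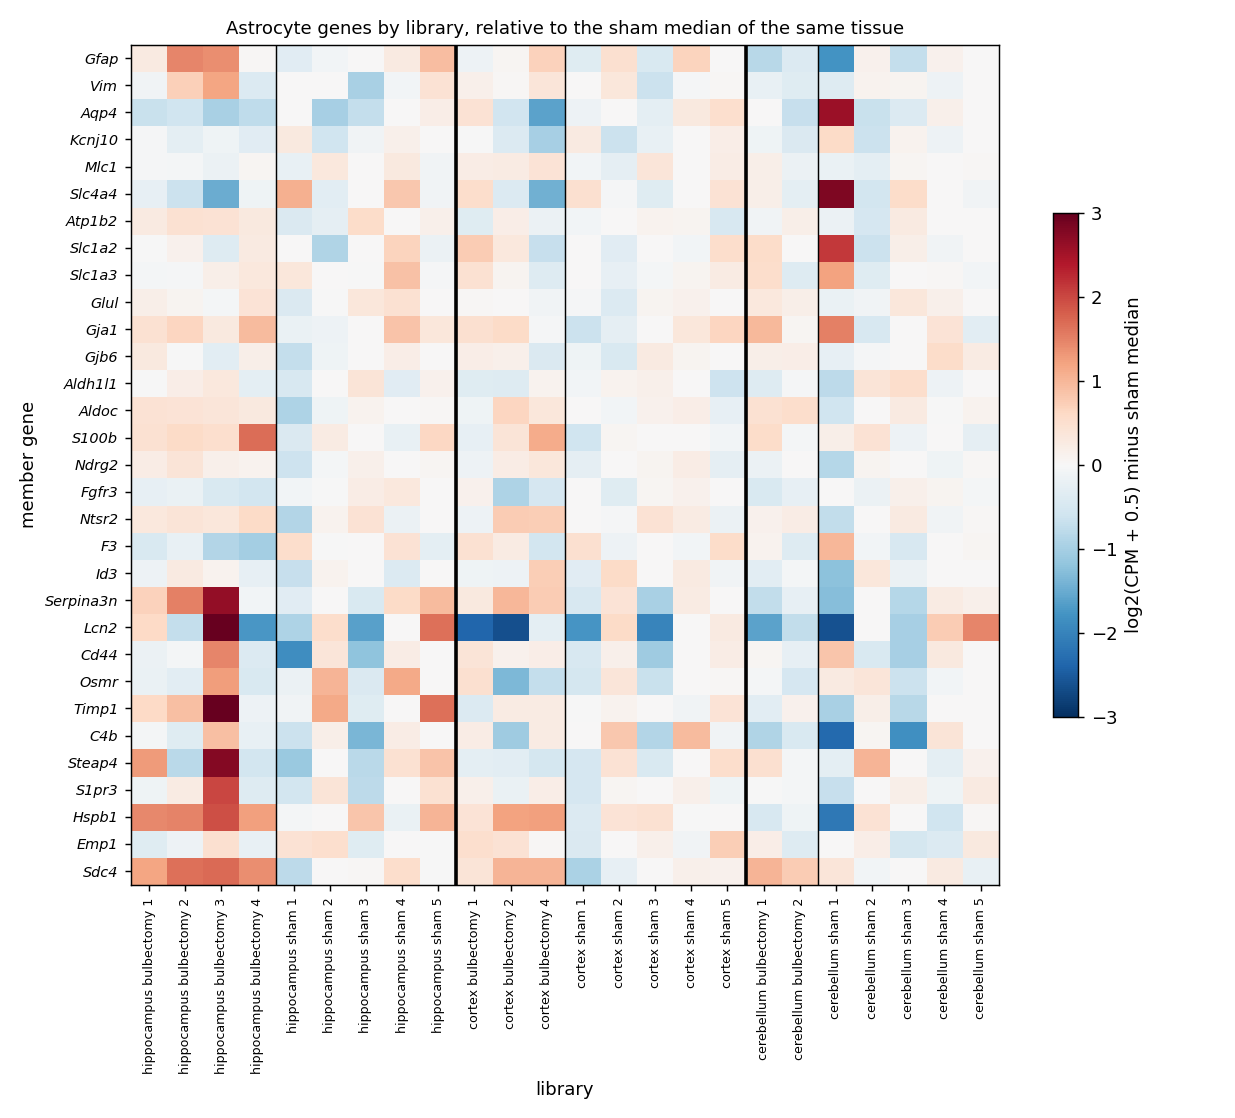
Colours show log2(CPM + 0.5) in each of the 24 libraries (columns, by tissue and surgery) for each of the 31 genes (rows, by role), minus the median of the sham libraries of the same tissue, with colours limited to 3 on either side of 0. Hippocampus bulbectomy 3 is red across the reactive genes, and Sdc4 is red in all bulbectomy libraries of the 3 tissues.

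Among the reactive genes, 8 of 10 tested had a higher level after bulbectomy, 1 of them called, with a median log2 difference of 1.05, and this median rested on 1 library. Without hippocampus bulbectomy 3 the count was 5 of 10 and the median 0.0066, while over all 30 genes it was 18 of 30 and 0.11. Without hippocampus sham 1 and sham 2 it was 9 of 10 and 0.98. The 18 resting genes were split, with 11 higher and 7 lower and a median of 0.13.

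Sdc4 (ENSMUSG00000017009, chromosome 2, 164424247 to 164443887, GRCm38) encodes syndecan-4, a transmembrane heparan sulfate proteoglycan that binds growth factors and matrix and acts with integrins at adhesion sites. In hippocampus it measured 81.1, 113, 116 and 94.7 CPM in the bulbectomy libraries and 20.4, 35.5, 36.5, 51.4 and 35.1 CPM in the sham libraries. The lowest bulbectomy library lay well above the highest sham library, and hippocampus bulbectomy 3 did not stand out. The level was 2.93-fold higher after bulbectomy, a log2 difference of 1.55 ± 0.20 (SE, edgeR adjusted p = 0.00475, n = 4 and 5). The gene was called under all 8 other processing choices tried (1.39 to 1.59) and without each of the 9 libraries in turn (1.37 to 1.65, adjusted p 0.00376 to 0.0270). Without bulbectomy 3 the log2 difference was 1.46 (edgeR adjusted p = 0.0115). Summed levels of 12 thalamus and habenula markers were 492, 254, 328 and 332 CPM in the bulbectomy libraries and 143, 86.7, 353, 123 and 347 CPM in the sham libraries. Sham 3 and sham 5 lay within the bulbectomy range of this sum. Of the 12 markers, 11 had a higher level after bulbectomy, with a median log2 difference of 1.45. In 7 every bulbectomy library was above every sham library (3.70% of all genes). The 4 called (1.55% of all genes were) were Tac2 (2.15 ± 0.31), Chrnb4 (2.63 ± 0.39), Gpr151 (3.55 ± 0.53) and Rora (1.71 ± 0.29). Their edgeR adjusted p ranged from 0.00655 to 0.0137, and every sham library was below every bulbectomy library. Markers of another region were thus also higher after bulbectomy. By library their sum and Sdc4 were not in the same order. In each of the 4 called markers the groups were apart, as in Sdc4. The part of these markers in the result of Sdc4 was not tested.

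Hspb1, the small heat shock protein HSP27 that protects filaments and folding proteins under stress, came next. Its hippocampal levels were 19.8, 20.3, 28.1 and 17.1 CPM after bulbectomy and 6.63, 6.97, 12.7, 6.03 and 14.7 CPM after sham. The groups did not overlap, though the nearest libraries, bulbectomy 4 and sham 5, were close. The log2 difference was 1.23 ± 0.29 (2.34-fold) and missed the threshold in edgeR (adjusted p = 0.0535). It was called without a filter on low counts (adjusted p = 0.0361), in DESeq2 (adjusted p = 0.00543), with the replicate number as a block (adjusted p = 0.0315) and in edgeR without sham 5 (adjusted p = 0.0321).

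**Figure D2:**
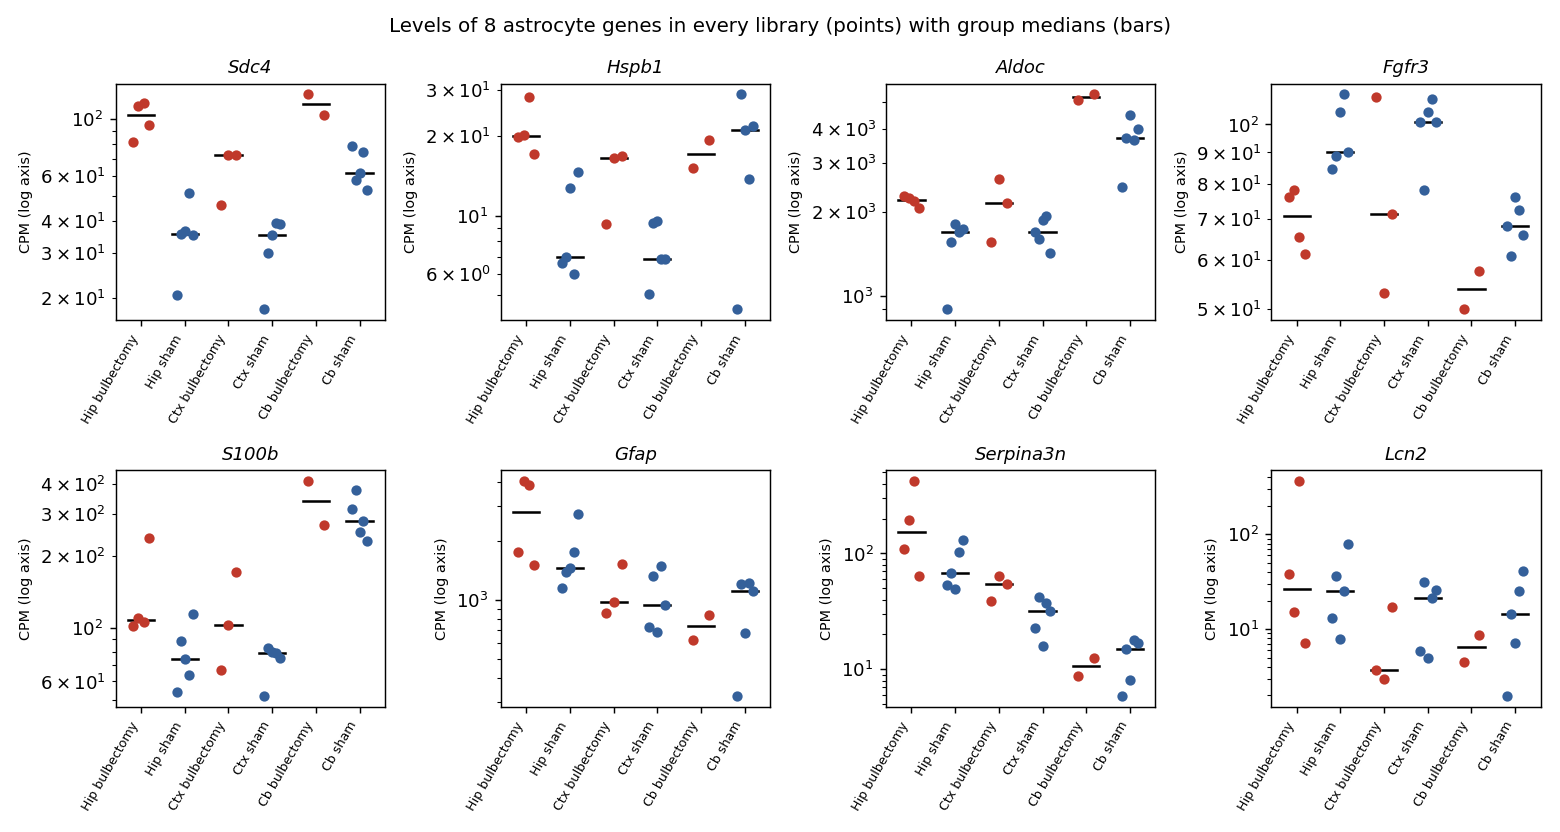
Each point is 1 library and each bar a group median, in CPM on a log axis, for 8 of the genes in hippocampus (Hip), cortex (Ctx) and cerebellum (Cb), bulbectomy in red and sham in blue. The Sdc4 points of the surgery groups are apart in each tissue, and for Lcn2 the hippocampal bulbectomy libraries spread from 7.17 to 365 CPM.

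Most of the remaining reactive genes had their highest value in a single bulbectomy library. Lcn2, the secreted iron-siderophore binding protein lipocalin-2, measured 38.1, 15.2, 365 and 7.17 CPM after bulbectomy and 13.0, 36.6, 7.86, 25.2 and 80.1 CPM after sham. Serpina3n, a secreted inhibitor of serine proteases with close paralogs in a gene cluster, measured 110, 195, 421 and 64.5 CPM after bulbectomy and 53.3, 67.8, 49.5, 102 and 131 CPM after sham. In both genes bulbectomy 3 was the highest of the 9 libraries, and bulbectomy 4 was below every sham library for Lcn2 and within their range for Serpina3n. Hippocampus bulbectomy 3 was the highest of the 9 for 9 of the 10 reactive genes tested, all but Emp1, and for 10.6% of all genes. Its level exceeded the next highest library 4.55-fold for Lcn2, 3.42-fold for Timp1 (an inhibitor of metalloproteinases), 2.99-fold for the sphingosine phosphate receptor gene S1pr3, 2.19-fold for the hyaluronan receptor gene Cd44 and 1.60-fold for the complement gene C4b, which has a near-identical copy. Steap4, a metalloreductase gene, was at 6.74 CPM there and at 0 to 2.10 CPM in the other hippocampal libraries; in sham 1, where it was 0, 3 reads would be 0.829 CPM. The microglia sum was also highest in bulbectomy 3, and its part in these levels was not tested. Log2 differences with all libraries were 1.77 ± 1.23 for Lcn2 and 1.36 ± 0.55 for Serpina3n, neither called (edgeR adjusted p = 0.456 and 0.214), and -0.68 and 0.65 without bulbectomy 3, so that Lcn2 changed sign. Without that library Timp1 was at -0.20, S1pr3 at -0.028, Cd44 at 0.050 and C4b at 0.042. Osmr, at -0.17 ± 0.46, and Emp1, at -0.13 ± 0.35, were the reactive genes with lower fitted levels.

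Gfap measured 1748, 4042, 3852 and 1508 CPM in hippocampus after bulbectomy and 1148, 1380, 1461, 1750 and 2755 CPM after sham. Bulbectomy 2 and 3 were above every sham library, whereas bulbectomy 1 and 4 lay inside the sham range. The log2 difference was 0.77 ± 0.33 (edgeR adjusted p = 0.225). Vim, the partner filament, was at 115, 201, 280 and 92.7 CPM after bulbectomy and 62.9 to 166 CPM after sham (0.59 ± 0.35, and 0.23 without bulbectomy 3).

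The resting genes differed in both directions. Aldoc, the brain form of the glycolytic enzyme aldolase, measured 2286, 2252, 2196 and 2082 CPM after bulbectomy and 897, 1562, 1817, 1699 and 1747 CPM after sham. The bulbectomy libraries were tightly grouped above all sham libraries, and sham 1 was far below the other sham libraries. The log2 difference was 0.57 ± 0.19 (edgeR adjusted p = 0.129). S100b, a calcium-binding protein released by astrocytes, measured 102, 111, 106 and 238 CPM after bulbectomy and 54.4, 88.8, 74.2, 63.6 and 115 CPM after sham. Sham 5 overlapped the bulbectomy libraries, and bulbectomy 4 was far above the rest (log2 difference 0.85 ± 0.28, edgeR adjusted p = 0.130, and 0.47 without bulbectomy 4). Ntsr2, a neurotensin receptor gene typical of astrocytes, was at 271, 284, 273 and 323 CPM against 117 to 293 CPM after sham (0.50 ± 0.21). The folate enzyme gene Aldh1l1, Ndrg2 and Id3 differed by 0.15 ± 0.20, 0.34 ± 0.17 and 0.22 ± 0.20, and none of these was called.

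Other resting genes had lower levels after bulbectomy. F3, tissue factor, the starter of blood clotting that astrocytes also make, measured 8.73, 10.3, 6.37 and 5.73 CPM after bulbectomy and 17.7, 12, 12.1, 16.5 and 9.74 CPM after sham. The groups met between bulbectomy 2 and sham 5 (log2 difference -0.75 ± 0.25, edgeR adjusted p = 0.127). Fgfr3, a fibroblast growth factor receptor, measured 76.2, 78.1, 65.4 and 61.4 CPM after bulbectomy and 84.5, 88.8, 105, 112 and 90 CPM after sham. Every bulbectomy library was below every sham library, but the log2 difference of -0.40 ± 0.14 was not called (edgeR adjusted p = 0.141). A gene on the opposite strand overlaps 13.9% of the exon length of Fgfr3, and whether the counting used strand was not given in the sources used here. Slc4a4, a sodium bicarbonate cotransporter, was at 11.4 to 29.9 CPM after bulbectomy and 26.1 to 68.8 CPM after sham (-0.90 ± 0.33). Of the 5 genes for water and ion handling, 4 had lower fitted levels, with a median of -0.12 and none called. Beside Slc4a4 they were Aqp4 (-0.48 ± 0.24), the potassium channel gene Kcnj10 (-0.12 ± 0.19), the endfoot membrane protein gene Mlc1 (-0.074 ± 0.15) and, with a higher level, Atp1b2 (0.38 ± 0.19). The glutamate transporter genes Slc1a2 and Slc1a3 and the glutamine synthetase gene Glul differed by 0.077 ± 0.23, -0.11 ± 0.19 and 0.12 ± 0.18 on the log2 scale. The gap junction genes Gja1 and Gjb6 (connexin 43 and connexin 30) differed by 0.45 ± 0.20 and 0.19 ± 0.18, and Gja1 was called when trends with gene length and GC content were removed (0.75, adjusted p = 0.0483).

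**Figure D3:**
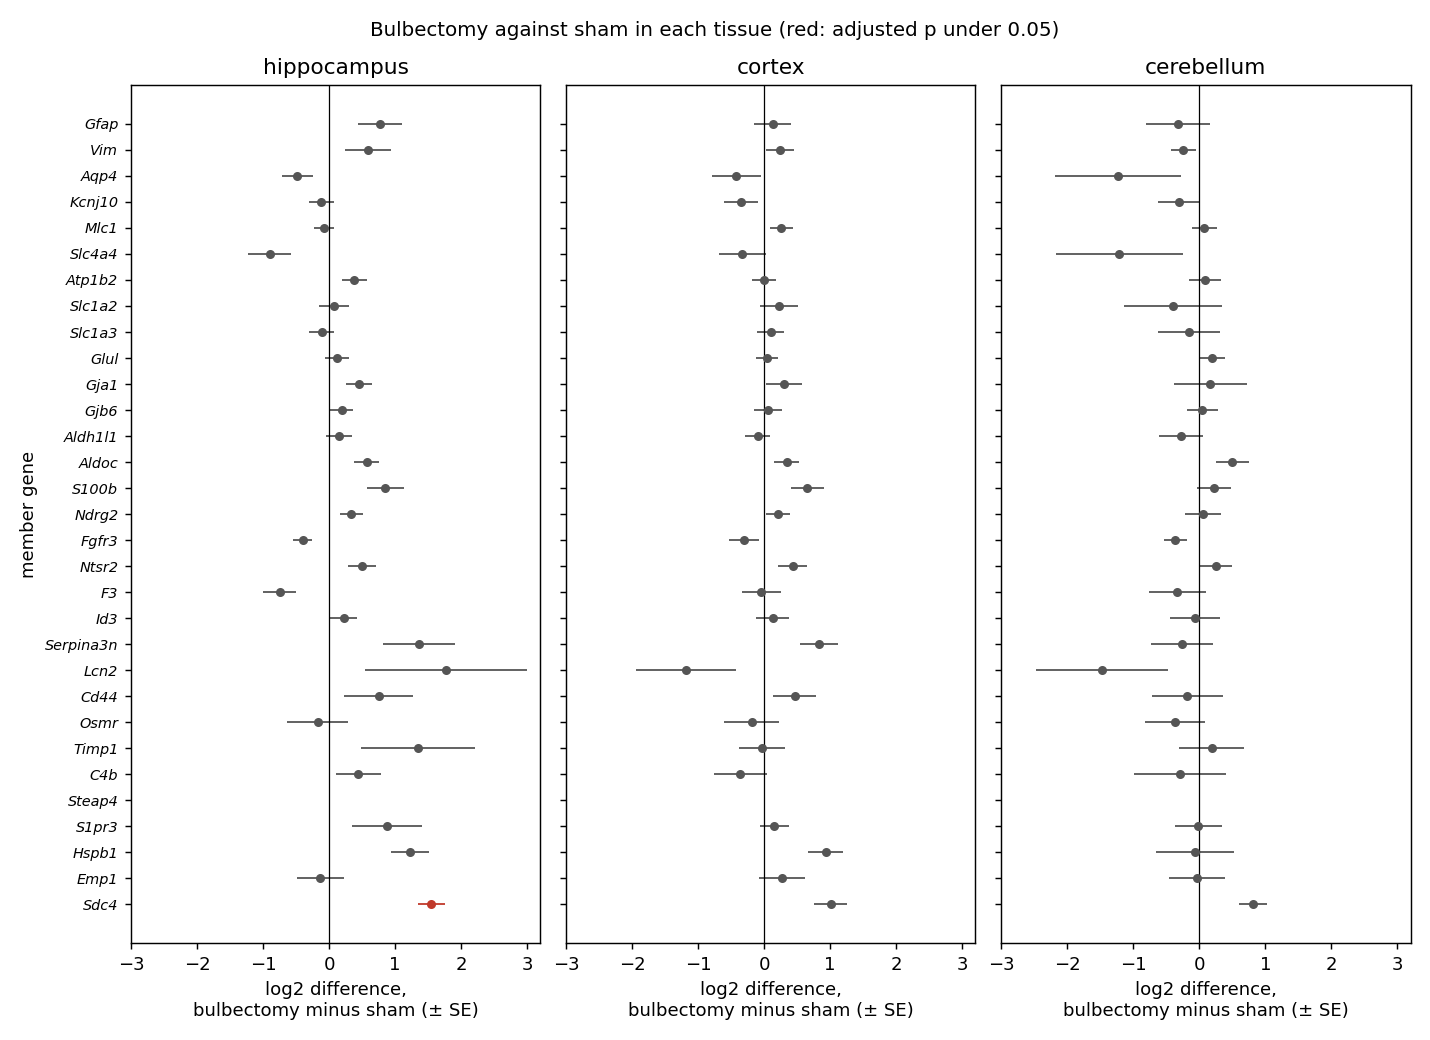
Points give the log2 difference, bulbectomy minus sham, and bars its standard error from edgeR, for the 30 genes tested in hippocampus, cortex and cerebellum, ordered by role, with red for an adjusted p under 0.05. Sdc4 in hippocampus, at 1.55, is the red point.

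In the cortex 0 of 30 genes tested were called by edgeR (0.0202% of 14847 genes were), 4 reached an unadjusted p under 0.05 (13.3%, against 5.91% of all genes), DESeq2 called 0 and limma voom with sample weights 2, Sdc4 and Hspb1. The 30 split into 19 higher and 11 lower, with a median log2 difference of 0.13. Sdc4 measured 46.0, 72.1 and 72.2 CPM after bulbectomy and 18, 29.8, 35.2, 39.0 and 38.7 CPM after sham. It was the single member whose bulbectomy libraries all lay above the sham libraries (1.85% of all genes), and for 0 members did they all lie below (1.66%). Its log2 difference was 1.01 ± 0.25 (edgeR adjusted p = 0.384). Without bulbectomy 1, the lowest of its group, it was 1.19 and called (edgeR adjusted p = 0.0236), as were Hspb1 (1.16, adjusted p = 0.0301) and S100b (0.92, adjusted p = 0.0337). Without bulbectomy 4 S100b was at 0.23, and without single other libraries Sdc4 was at 0.86 to 1.07 and Hspb1 at 0.79 to 1.01, none of them called. Over all genes the edgeR calls went from 3 to 573 without that library.

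Hspb1 in cortex measured 9.32, 16.5 and 16.8 CPM after bulbectomy and 5.07, 9.39, 9.58, 6.87 and 6.89 CPM after sham, so that bulbectomy 1 fell inside the sham range (0.93 ± 0.27, edgeR adjusted p = 0.634). Serpina3n measured 39.0, 63.7 and 54.1 CPM after bulbectomy and 22.6, 42.3, 15.8, 37.6 and 31.7 CPM after sham (0.83 ± 0.29, edgeR adjusted p = 0.711). S100b measured 66.8, 103 and 172 CPM against 52.2, 82.6, 80.0, 79.1 and 75.1 CPM (0.65 ± 0.25, edgeR adjusted p = 0.770), and Ntsr2 145, 271 and 267 CPM against 142 to 217 CPM (0.43 ± 0.22, edgeR adjusted p = 0.844). In each of these genes bulbectomy 1 lay within the sham range. Gfap was at 852, 973 and 1515 CPM after bulbectomy and 728, 1322, 687, 1496 and 940 CPM after sham, groups that overlapped almost wholly (0.13 ± 0.28, edgeR adjusted p = 0.946). Lcn2 was at 3.67, 2.96 and 17.1 CPM against 5.81, 31.8, 4.99, 21.1 and 25.7 CPM (-1.18 ± 0.76).

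In the cerebellum, with 2 bulbectomy libraries, 0 of 30 genes tested were called by edgeR (0.0131% of 15295 genes were), 1 reached an unadjusted p under 0.05 (3.33%, against 2.97% of all genes), DESeq2 called 0 and limma voom 1, Sdc4. Higher fitted levels were found for 11 and lower for 19, with a median log2 difference of -0.11 against -0.064 over all genes. Sdc4 measured 125 and 104 CPM after bulbectomy and 78.7, 57.7, 61.5, 74.3 and 52.9 CPM after sham (0.81 ± 0.21, edgeR adjusted p = 1). Aldoc measured 5059 and 5316 CPM against 2463, 3700, 4488, 3652 and 3991 CPM (0.50 ± 0.25). Fgfr3 measured 49.9 and 57.7 CPM against 68.3, 60.9, 76.2, 72.5 and 66.0 CPM (-0.36 ± 0.18). Sdc4 and Aldoc were the 2 members with both bulbectomy libraries above all sham libraries (6.21% of all genes) and Fgfr3 the 1 with both below (4.78%). Lcn2 was at 4.46 and 8.56 CPM against 1.97 to 41.3 CPM (-1.47 ± 1.0). Aqp4 was at 57.4 and 35.0 CPM against 35.8 to 337 CPM (-1.23 ± 0.95, and -0.12 without sham 1, which holds the highest value), and Gfap was at 624 and 838 CPM against 322 to 1223 CPM (-0.32 ± 0.48, and -0.54 without sham 1). In these 3 the groups overlapped (edgeR adjusted p = 1 for each of the 5 genes other than Sdc4).

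Sdc4 was thus the member whose bulbectomy libraries lay above the sham libraries in each of the 3 tissues, called in hippocampus by edgeR. The share of all genes with this pattern in all 3 tissues was not computed. Within hippocampus, cortex and cerebellum the shares were 3.70%, 1.85% and 6.21%. The difference of the effects on Sdc4 between tissues was tested over all 24 libraries. It was 0.49 ± 0.32 on the log2 scale for hippocampus minus cortex, 0.68 ± 0.35 for hippocampus minus cerebellum and 0.19 ± 0.36 for cortex minus cerebellum, and none was called. Of the 31 genes, all tested in this fit, edgeR called 0 in each of the 3 comparisons of effects (0%, 0% and 0% of 16564 genes), with 0, 1 and 0 members at an unadjusted p under 0.05 and 0 members called by DESeq2. The smallest p for hippocampus minus cortex belonged to Lcn2 (2.87 ± 1.42) and Steap4 (2.97 ± 1.56), which were at 0.46 and 1.51 without hippocampus bulbectomy 3. For hippocampus minus cerebellum it belonged to Serpina3n (1.56 ± 0.71, unadjusted p = 0.0379 in edgeR, and 0.88 without hippocampus bulbectomy 3) and Hspb1 (1.27 ± 0.62), and for cortex minus cerebellum to the same genes (1.09 and 1.03), with edgeR adjusted p of 1 throughout.

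Other genes of astrocytes and of the pathways that act on them were read from 3 further lists. Of 26 other resting astrocyte genes in hippocampus, 22 had higher and 4 lower levels after bulbectomy, with a median of 0.23. Of these 1, Sox9, was called (1.55% of all genes were). Sox9, a transcription factor needed for the astrocyte lineage, measured 27.8 to 54.6 CPM after bulbectomy and 13.8 to 22.2 CPM after sham (1.17 ± 0.22, edgeR adjusted p = 0.0239). Of 26 other reactive genes tested, 19 were higher and 7 lower (median 0.26), 0 were called by edgeR, DESeq2 or voom and 1 reached an unadjusted p under 0.05. The summed level of this list was 3388 CPM in hippocampus bulbectomy 3. It was 1529 to 2136 CPM in the other bulbectomy libraries and 611 to 2190 CPM in the sham libraries. The counts of this list without bulbectomy 3 were not computed. Of 28 genes tested from a list named for STAT3, cytokine, BMP and NF-kappaB signalling, 14 were higher and 14 lower. The list also holds Notch and nuclear factor I genes, which are not of the named pathways. From this list edgeR called 3 genes, all higher (1.55% of all genes were called). They were the nuclear factor I genes Nfia (1.25 ± 0.20, adjusted p = 0.0115) and Nfib (0.97 ± 0.23, adjusted p = 0.0489), which act in gliogenesis, and Nfkbia (0.86 ± 0.20, adjusted p = 0.0470), the inhibitor of NF-kappaB that NF-kappaB itself induces. The groups did not overlap for Sox9, Nfia and Nfkbia and overlapped for Nfib. On the resting list the bulbectomy group was wholly above in 4 genes and wholly below in 2. On the signalling list the counts were 2 and 3, beside 3.70% and 5.61% of all genes. Of the resting list 23.1% and of the signalling list 32.1% reached an unadjusted p under 0.05, beside 20% of all genes, and of the reactive list 3.85%. Other tools gave further calls, named here after their values were seen. DESeq2 also called the metallothionein genes Mt1 (0.89, adjusted p = 0.0279) and Mt2 (1.19, adjusted p = 0.0196) higher, and the zinc transporter gene Slc39a12 (-0.75, adjusted p = 0.0120), the kinase gene Jak2 (-0.94, adjusted p = 0.0347) and the receptor gene Notch1 (-1.28, adjusted p = 0.00776) lower. limma voom called Sox9, Nfia and Nfkbia and, lower, Notch1 (-1.32, adjusted p = 0.0489), but not Nfib. A further list held 8 genes of Bergmann glia and cerebellar astrocytes. Of the 7 tested in hippocampus, edgeR called 0, 4 were higher and 3 lower, and 42.9% reached an unadjusted p under 0.05 (20% of all genes). DESeq2 called Itih3 (0.72, adjusted p = 0.0322), Sept4 (0.65, adjusted p = 0.0442) and Dao (2.10, adjusted p = 0.0255, not tested in edgeR) higher. Of this list voom called Sept4 (0.61, adjusted p = 0.0497).

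Of the 4 edgeR calls, those of Nfkbia and Nfib lay close to the threshold and those of Sox9 and Nfia further from it. Over 8 other processing choices Sox9 kept its call in 7, Nfia and Nfkbia in 6 each and Nfib in 3. Without single libraries the log2 differences stayed at 0.98 to 1.31 for Sox9, 1.08 to 1.36 for Nfia, 0.72 to 1.0 for Nfkbia and 0.74 to 1.10 for Nfib, while the edgeR adjusted p passed the threshold in some of these fits. It ranged from 0.0260 to 0.0993 for Sox9, which was lost without bulbectomy 2, 3 or 4 or sham 3 or 4, and from 0.00995 to 0.0554 for Nfia, lost without bulbectomy 4. For Nfkbia it ranged from 0.0152 to 0.143, and for Nfib from 0.0518 to 0.149, lost without any one of the 9 libraries. In cortex Sox9 differed by 0.85 ± 0.23 (edgeR adjusted p = 0.522) and Nfia by 0.71 ± 0.19 (edgeR adjusted p = 0.547). edgeR called 0 genes of the 3 lists in cortex, where 5, 6 and 2 genes in the order above had an unadjusted p under 0.05 (19.2%, 23.1% and 7.14%, beside 5.91% of all genes), DESeq2 called 0, and voom called 2, 1 and 2. In cerebellum edgeR and DESeq2 called 0, 0, 1 and 1 genes had such a p (0%, 4.0% and 3.57%, beside 2.97% of all genes), and voom called 0, 0 and 1.

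The sham libraries give the levels of these genes in each tissue without the lesion. Per length, Aldoc was the most abundant of the 31 in each tissue, at 473 ± 115 RPKM in hippocampus, 525 ± 63.4 in cortex and 1121 ± 229 in cerebellum (SD, n = 5). In hippocampus Gfap (403 ± 149 RPKM), Glul (387 ± 89.5) and Ndrg2 (387 ± 71.4, a stress-responsive astrocyte protein) followed within 1 SD of it. In cortex the order went on with Glul (469 ± 65.1), Ndrg2 (357 ± 54.3) and Gfap (245 ± 85.4), and in cerebellum with Ndrg2 (740 ± 168), the sodium pump subunit gene Atp1b2 (476 ± 89.3) and Glul (300 ± 46.0). At the other end Steap4 was lowest in each tissue, with 0.198 ± 0.191, 0.128 ± 0.0946 and 0.0655 ± 0.0987 RPKM, and Osmr, the oncostatin M receptor gene, and Emp1, a membrane protein gene, were the next lowest, all below 1 RPKM. Sdc4 stood at 14.1 ± 4.31 RPKM in hippocampus, 12.6 ± 3.43 in cortex and 25.5 ± 4.33 in cerebellum.

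**Figure D4:**
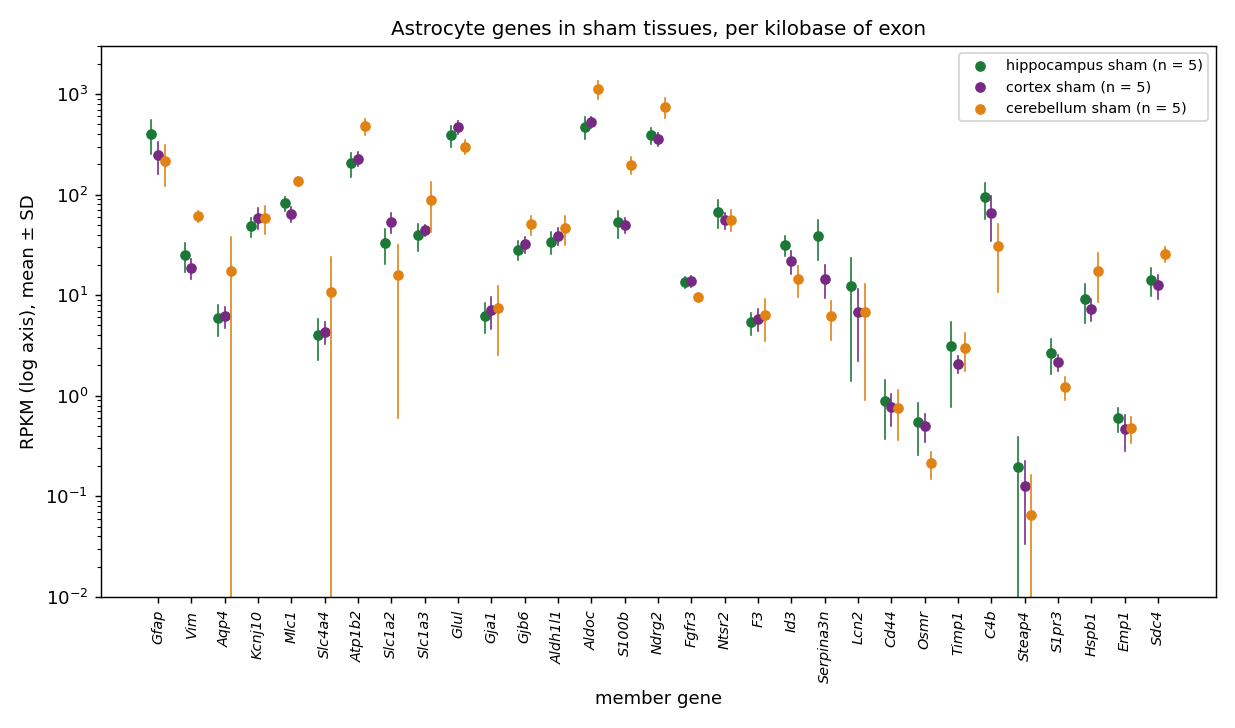
Mean RPKM with SD over 5 sham libraries is shown on a log axis for each gene in the 3 tissues; a bar that would pass below 0.01 RPKM ends there. Aldoc is highest and Steap4 lowest in each tissue, and S100b and Vim are higher in cerebellum than in hippocampus and cortex.

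Few of the genes were called between sham hippocampus and sham cortex. At an edgeR adjusted p under 0.05, 1 of 30 was higher in sham hippocampus than in sham cortex (2.09% of 15142 genes were) and 0 were lower (1.21%). The gene was Serpina3n, at 53.3, 67.8, 49.5, 102 and 131 CPM in hippocampus and 22.6, 42.3, 15.8, 37.6 and 31.7 CPM in cortex, groups that did not overlap (1.45 ± 0.35, adjusted p = 0.0315). The call was lost without hippocampus sham 4 or 5 or cortex sham 1, 3, 4 or 5 (edgeR adjusted p 0.0546 to 0.0989), while the difference stayed at 1.20 to 1.61 over all single libraries left out. All 10 reactive genes tested had a higher fitted level in hippocampus, with a median of 0.36. Over all genes 52.3% were higher, with a median of 0.019. Of the 10, only Serpina3n reached an unadjusted p under 0.05 in edgeR (13.5% of all genes did).

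Against cerebellum, 6 of 30 genes were higher in sham hippocampus (15.5% of all genes) and 10 lower (12.9%), and 6 were higher in sham cortex (16.8%) and 11 lower (17.9%). Serpina3n, Osmr, S1pr3 and Fgfr3 were higher in both forebrain tissues. S100b, Vim, Aqp4, Mlc1, Atp1b2, Slc1a3, Gjb6, Aldoc, Ndrg2 and Sdc4 were lower in both. Beside these, C4b and Id3, an inhibitor of helix-loop-helix transcription factors, were called higher in hippocampus, Slc1a2 and Glul were called higher in cortex and Hspb1 lower in cortex. In the cortex comparison the call of S1pr3 was lost without cortex sham 2, 3 or 4 or cerebellum sham 2 or 4 (edgeR adjusted p 0.0504 to 0.0876), and that of Hspb1 without cortex sham 1 or cerebellum sham 2 (0.0569 and 0.0662).

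Of the genes higher in forebrain, Serpina3n was at 5.90, 15, 8.05, 17.8 and 16.8 CPM in cerebellum, all below the hippocampal range (log2 difference of hippocampus minus cerebellum 2.69 ± 0.37, edgeR adjusted p = 3.21e-05; cortex minus cerebellum 1.24 ± 0.36, adjusted p = 0.0120). C4b measured 400, 701, 241, 728 and 621 CPM in hippocampus and 44.8, 237, 63.6, 300 and 228 CPM in cerebellum (1.65 ± 0.49, edgeR adjusted p = 0.0190), with overlap between single libraries, and without hippocampus sham 1 and 2 the difference was 1.59 and no longer called (adjusted p = 0.0622). Osmr, low throughout, measured 3.40 to 11 CPM in hippocampus, 4 to 8.65 in cortex and 1.44 to 3.41 in cerebellum (1.43 ± 0.35 and 1.26 ± 0.35, edgeR adjusted p = 0.00560 and 0.0104).

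Of the genes higher in cerebellum, S100b had the largest difference. It measured 54.4 to 115 CPM in hippocampus, 52.2 to 82.6 in cortex and 317, 378, 253, 281 and 233 in cerebellum, with no overlap (-1.84 ± 0.20 and -1.97 ± 0.20, edgeR adjusted p = 2.88e-06 and 1.07e-06). Vim, which Bergmann glia keep into adult life, measured 62.9 to 166 CPM in hippocampus, 57.2 to 113 in cortex and 231 to 321 in cerebellum (-1.24 ± 0.23 and -1.71 ± 0.24, edgeR adjusted p = 0.000693 and 2.89e-05). Aqp4, the water channel of astrocyte endfeet, measured 337 CPM in cerebellum sham 1 and 35.8, 42.3, 63.6 and 56.8 CPM in the other cerebellar sham libraries, beside 21.5 to 50.1 CPM in hippocampus and 28.9 to 51.3 CPM in cortex. Its calls (-1.43 ± 0.50 and -1.41 ± 0.50, edgeR adjusted p = 0.0427 and 0.0371) rested on that library. Without it the differences were both -0.39 (edgeR adjusted p = 0.224 and 0.197). They were also lost without any 1 hippocampal library (0.0516 to 0.0972) and without cortex sham 1, 2, 3 or 4 (0.0580 to 0.0816).

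The same library was high in other transporter genes. Cerebellum sham 1 had Slc4a4 at 366 CPM, 4.77-fold above the next cerebellar library, Slc1a2 at 570 CPM, 2.98-fold above, and Slc1a3 at 1437 CPM, 1.61-fold above. It was the highest of the 7 cerebellar libraries for 8 of 30 members and the lowest for 15, against 35.7% and 35.6% of all genes. Slc1a2, the main forebrain glutamate transporter gene (GLT-1), was higher in cortex than in cerebellum (1.80 ± 0.42, edgeR adjusted p = 0.00318, and 2.52 without cerebellum sham 1) and missed the threshold for hippocampus (1.12 ± 0.41, adjusted p = 0.0536). Without cerebellum sham 1 the latter was 1.86 and called (edgeR adjusted p = 1.32e-05), as were, for hippocampus minus cerebellum, Hspb1 (-1.17, adjusted p = 0.00324) and Gfap (0.71, adjusted p = 0.0460). Sdc4 was higher in sham cerebellum than in hippocampus (-0.82 ± 0.21, edgeR adjusted p = 0.00795), a call lost without hippocampus sham 1 and 2 (-0.66, adjusted p = 0.0522).

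Sham libraries of hippocampus and cerebellum with the same number deviated together. With the number as a block, edgeR called 20 members between these tissues in place of 16. The block added Gfap (1.04, adjusted p = 0.00563), Slc1a2 (1.34, adjusted p = 0.00688), Glul (0.39, adjusted p = 0.0392) and Slc4a4 (-0.95, adjusted p = 0.0461).

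The balance between related genes was read as a ratio within each library. Slc1a3 encodes GLAST, the transporter that Bergmann glia use, and its level per length over that of Slc1a2 was 0.29 ± 0.35 on the log2 scale in sham hippocampus, -0.27 ± 0.17 in sham cortex and 2.72 ± 0.47 in sham cerebellum (SD, n = 5). The difference in this log2 ratio was 0.55 for hippocampus minus cortex, -2.44 for hippocampus minus cerebellum and -2.99 for cortex minus cerebellum. In each of the 3 the groups did not overlap (exact permutation p = 0.00794, two-sided, the smallest that 5 against 5 allows, 0.0159 adjusted over 6 such tests). Leaving out single libraries kept these at 0.41 to 0.64, -2.63 to -2.33 and -3.18 to -2.88. Gjb6 was above Gja1 per length in every library, with group means of the log2 ratio from 1.92 to 2.92. This order rests on the exon lengths used, 2674 bases for Gjb6 and 10257 for Gja1, which join the exons of all annotated transcripts. In CPM the order varied, with Gjb6 at 103 and Gja1 at 164 in cerebellum sham 1 and 181 and 76.0 in cerebellum sham 4. Differences of the ratio between tissues do not depend on these lengths. For Gjb6 over Gja1 the differences were -0.029, -0.72 and -0.69 (exact permutation p = 0.905, 0.159 and 0.175). Without cerebellum sham 1 the latter were -1.14 and -1.11 (exact permutation p = 0.00794 and 0.0159). Both ratios were chosen after the levels had been seen, and the permutations took all libraries as independent. Same-numbered hippocampus and cerebellum sham libraries deviated together, and no test of the ratios paired by number was run.

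**Figure D5:**
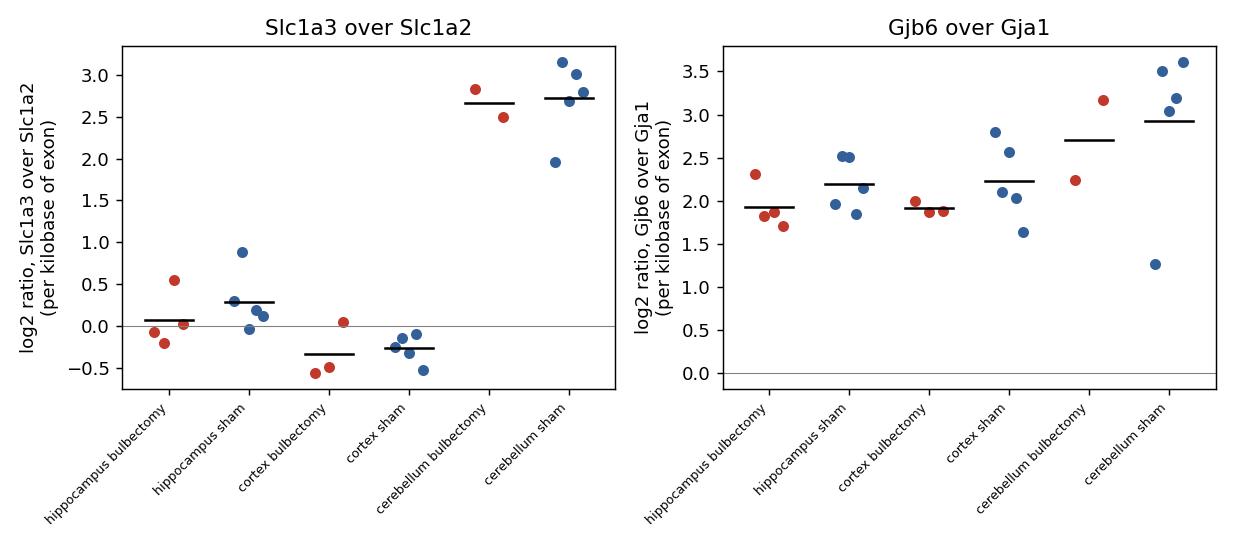
Each point is the log2 ratio of levels per length in 1 library, of Slc1a3 over Slc1a2 and of Gjb6 over Gja1, with a bar at the group mean. The cerebellar libraries lie above all others for Slc1a3 over Slc1a2.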

How the data were processed

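RNA of integrity number 8 or above was made into directional polyA libraries and sequenced single-end, per the labels' protocols. The authors deposited raw read counts per gene, made with Trimmomatic, STAR and featureCounts on mm10, per the submitters' processing notes. Versions, annotation, strand setting and treatment of reads matching several genes were not given in the sources used here. The 12 assignment totals in each file were left out. Genes were named through GENCODE M21, which held 55227 of 55487 identifiers.

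The gene list, the other lists and the tests were chosen with earlier results of these data known. Counts were tested with edgeR 4.0.16 (filterByExpr, TMM factors, robust quasi-likelihood test, R 4.3.3), with Benjamini-Hochberg adjustment over all genes and a threshold of 0.05, within each tissue, over the 15 sham libraries, and over all 24 libraries for differences between tissues. CPM and RPKM were computed here from the counts. Alternatives were DESeq2 1.42.0, limma 3.58.1 voom with sample weights, RLE size factors, no filter and removal of length and GC trends. Others were 1 fit of all libraries, a replicate block, and leaving out libraries. Leaving out hippocampus sham 1 and 2, alone or with cerebellum sham 1, was added after seeing the data. So were the single-library checks of the ratios. Named with statistics were, in each bulbectomy comparison, the called members and those of smallest p up to 5 in all, and Gfap; in each sham comparison the 3 called members of largest difference in each direction; in each comparison of effects the 2 of smallest p. Genes of the other lists were named where called. Other members are given as levels or fitted differences; some of these were chosen after their values were seen.

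The labels do not say that equal replicate numbers mean one animal. By deviations from group means, same-numbered hippocampus and cerebellum sham libraries deviated together (5 of 5 correlations over 0.1, from 0.27 to 0.55). For sham cortex, 4 of 5 were over 0.1 with sham hippocampus and 4 of 5 with sham cerebellum, though some were negative. Some correlations were also negative in the other groups with 3 or more shared numbers. Whether equal numbers pair samples there cannot be told from these values.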

Additional observations from a re-analysis of the deposited data

Results flagged for a closer look

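In 84 groups of 4 or 5 libraries that were checked, 15 had a library whose gap to the nearest other was large for the range of the group (Dixon's ratio). For normally distributed values chance gives about 1 in 20 groups at this cut-off. The ratio was taken on CPM without a log scale, where values need not be so distributed and the rate may differ. The groups share libraries and so are not independent, and 15 of 84 was not tested against that rate. Cerebellum sham 1 was the library set apart in 6 of the 15. It had Aqp4 at 337 CPM (the other cerebellar sham libraries 35.8 to 63.6), Slc1a2 at 570 CPM (83.2 to 148), F3 at 28.4 CPM (9.95 to 14.7), Sox9 at 33.9 CPM (12.3 to 14.6), Nfia at 96.5 CPM (15.5 to 18.1) and Nfib at 115 CPM (17.2 to 23.3). Hippocampus bulbectomy 3 was set apart in 3, with Lcn2 at 365 CPM (7.17 to 38.1 in the other bulbectomy libraries), C4b at 1166 CPM (486 to 600) and Osmr at 12 CPM (3.34 to 4.09). Hippocampus bulbectomy 4 had S100b at 238 CPM (102 to 111), and hippocampus sham 1 had Aldoc at 897 CPM (1562 to 1817). In cortex, sham 1 had S100b at 52.2 CPM (75.1 to 82.6), sham 2 had Fgfr3 at 78.0 CPM (101 to 110) and sham 4 had a sum over the 31 genes of 10889 CPM (8760 to 9363). Steap4 in cerebellum sham 2 was at 0.748 CPM (0 to 0.170), a handful of reads.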

How the results depend on the processing

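Members called numbered 1 in hippocampus and 2 without a low-count filter, with DESeq2 or with the replicate block (each adding Hspb1) and with length and GC trends removed (adding Gja1), and 1 to 2 when single libraries were left out. In cortex the number was 0, and 1 without the filter, 2 with voom and 0 to 3 over single libraries. In cerebellum it was 0, 1 with voom and 0 over single libraries, where leaving out a bulbectomy library left 1 that is assumed to vary like the sham group. For sham hippocampus against sham cortex it was 1, and 0 to 1 over single libraries. The cause was not tested. Gfap in cortex, 0.13, was -0.036 with the replicate block, -0.030 with voom and -0.16 to 0.29 over single libraries. In cerebellum the replicate block moved Lcn2 to 0.12 and Gfap to 0.19, and the count of members with a higher level from 11 to 16. Of 729 values of named genes and ratios, 653 kept direction and side of the threshold, 58 lost and 13 gained it and 5 changed sign. The members' median difference moved by more than 0.19 in hippocampus without bulbectomy 3 (0.36 to 0.11), in cerebellum with the block (-0.11 to 0.12), for sham hippocampus against cerebellum without cerebellum sham 1 (-0.19 to 0.0060) and for the effect in hippocampus minus cerebellum without cerebellum bulbectomy 1 (0.25 to 0.46). Over all genes, hippocampus had 217 calls, 938 with DESeq2, 440 with length and GC trends removed, 348 without sham 1 and 2, 76 with the block and 30 to 477 over single libraries. Cortex had 3 calls, 7 with RLE, 24 without the filter, 42 with DESeq2, 13 with the block, 7 with trends removed, 5 in one fit and 252 with voom. Cerebellum had 2 calls, 11 with DESeq2, 0 with the block, 67 with voom, 3 in one fit and 36 without sham 1. Sham hippocampus against cortex had 500 calls, 910 with DESeq2 and 765 with the block. Same-numbered bulbectomy and sham libraries correlated at -0.34 to 0.036 in hippocampus, -0.22 to 0.21 in cortex and 0.31 to 0.40 in cerebellum, where there were 2 pairs; the block changed the call of no member but Hspb1 in these 3 comparisons. For sham cortex against cerebellum, same-numbered libraries correlated at -0.25 to 0.51. There the block ended the call of Aqp4 (-0.93, edgeR adjusted p = 0.0658) and added Id3 and C4b. For sham hippocampus against cortex (-0.19 to 0.56) the block changed no member's call. Low reads limit Steap4, Timp1, Osmr and Emp1 most.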
